A study of Mus musculus with 6 samples.

Results

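Open chromatin was described at 7 genes that set the level and the transcriptional read-out of cyclic AMP: the phosphodiesterase genes Pde4a, Pde4b and Pde4d, the transcription factor genes Creb1 and Crem, the kinase gene Sik1 and the coactivator gene Crtc3. A called peak of accessible chromatin was assigned to one of them when its summit lay inside the gene on mm10, or when an end of that gene was the nearest end of any coding gene and lay within 100 kb. Peaks of different libraries that overlapped were merged into regions, which gave 116 regions at these 7 genes, of 68913 regions in all and 21887 coding genes. The genes were chosen by their role and selected on peak calls of these same libraries, among them day 1 calls near Pde4d and Pde4b, so the differences between the days below are a description and carry no test of their own.

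Cyclic AMP is made by adenylyl cyclases when a receptor, such as the β-adrenergic receptor of brown fat, activates a stimulatory G protein, and it is broken down by phosphodiesterases. The PDE4 enzymes are specific for cyclic AMP, and each of their genes uses several transcription starts to make long and short isoforms. Protein kinase A, which cyclic AMP activates, phosphorylates the factor encoded by Creb1. Crem encodes a close relative of that factor and, from an internal promoter, a repressor known as ICER. Salt-inducible kinases such as the product of Sik1 keep CRTC coactivators such as that of Crtc3 in the cytoplasm until protein kinase A relieves the hold. In brown adipocytes this route drives thermogenic genes and lipolysis.

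The data were ATAC-seq peak lists of wild-type mouse brown pre-adipocytes, a cell line labelled BAT, taken at day 0 (3 libraries) and day 1 (3 libraries) of differentiation toward brown adipocytes. ATAC-seq uses a transposase to cut and tag accessible DNA. The title of the study concerns deletion of RUNX1 or RUNX2, but all 6 libraries analysed here are labelled wild type. The agents that induced differentiation, and whether replicates were separate cultures, are not given in the sources used here, so any spread between libraries may be technical.

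The day 0 libraries held 8127635 to 11011889 fragments and 39211 to 55511 peaks, and the day 1 libraries 4919755 to 7302457 fragments and 12556 to 23274 peaks. The library of day 1 replicate 3 stood apart, with the fewest peaks and more fragments than the other day 1 libraries. Depth therefore moved with the day, and its part in the absence of a call at day 1 was not tested. For this reason some counts are given for the deposited lists and for equal lists, in which every library kept its 12556 strongest peaks by q. These are the day only regions over all 7 genes, their gene-end calls and, where listed, the peaks per library at a gene. Gene ends of the pre-adipocyte and mesenchymal marker list carried a peak at 5 to 7 of 12 genes at day 0 and 2 to 4 at day 1, with Cebpa called in all 6 libraries and Pdgfra, Cd34, Dpp4, Thy1 and Dlk1 in none. Endothelial markers had 1 gene-end peak of 6 in each day 0 library and 0 to 1 at day 1, at Kdr. Immune markers had 1 to 2 of 6 at day 0 and 0 at day 1, muscle markers 0 to 1 of 6 at day 0 and 0 at day 1, and epithelial markers 0 of 5 in every library. These marker counts are from the deposited lists. Over all coding genes, 44.6% to 50.2% had a gene-end peak in a day 0 library and 31.9% to 42% in a day 1 library. The share thus fell with the day over all genes as well.

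Of the listed transcription starts of these genes, 3 had a promoter overlapped by a peak in each day 0 library. Their upstream sequences are shown because they are where the promoter calls of Creb1, Pde4a and Pde4b fell. The sequences are from RefSeq on GRCm38.p6, the assembly that mm10 names, and run 5′ to 3′ on the plus strand over the 250 bases before the start. Capitals mark the bases that lay inside a peak of every day 0 library. The Creb1 sequence is chr1:64532554-64532803, the Pde4a sequence chr9:21165464-21165713 and the Pde4b sequence, from a start inside the gene, chr4:102569810-102570059.
Creb1: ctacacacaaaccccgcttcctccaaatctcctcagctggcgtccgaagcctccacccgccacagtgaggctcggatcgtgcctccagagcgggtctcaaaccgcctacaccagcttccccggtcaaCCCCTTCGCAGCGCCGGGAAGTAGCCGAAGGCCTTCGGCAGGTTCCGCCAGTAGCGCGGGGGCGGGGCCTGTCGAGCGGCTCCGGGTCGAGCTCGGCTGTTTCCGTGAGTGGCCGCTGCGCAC
Pde4a: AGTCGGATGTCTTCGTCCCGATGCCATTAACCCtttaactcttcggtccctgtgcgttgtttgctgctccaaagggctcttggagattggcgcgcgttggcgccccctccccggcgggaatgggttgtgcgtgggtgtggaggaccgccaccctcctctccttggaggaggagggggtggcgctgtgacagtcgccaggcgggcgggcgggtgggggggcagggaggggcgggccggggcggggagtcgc
Pde4b: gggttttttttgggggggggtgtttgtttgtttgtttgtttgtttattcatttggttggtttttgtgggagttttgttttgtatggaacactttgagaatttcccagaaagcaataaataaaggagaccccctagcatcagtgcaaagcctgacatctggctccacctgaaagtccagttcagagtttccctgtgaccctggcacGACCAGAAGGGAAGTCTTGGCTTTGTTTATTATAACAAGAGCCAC

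In Creb1, 123 of the 250 bases lay inside the peaks, and these were the bases next to the start. In Pde4b it was the 45 bases next to the start, since the peaks extended from there into the gene. In Pde4a it was the 33 bases farthest from the start. The RefSeq promoter table has 10 windows of 300 bases, from 250 before to 50 after a start, for 5 of the 7 genes. Base composition differed widely among them: 69% G or C in Creb1, 74.7% in Crtc3, 70% at the first start of Pde4a, 43.3% at the Pde4b start shown and 39.7% at the one listed start of Pde4d, beside a median of 52.7% over 32851 listed promoters.

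Short motifs were counted in these windows on both strands. The full cyclic AMP response element, TGACGTCA, occurred in 0 of the 10 windows and in 1.79% of all listed promoters of the same length. Its core TGACG, which is part of the full element, occurred in the second listed Pde4a window and the first listed Pde4b window, neither of which overlapped a peak, and in 20.8% of all promoters. The GC box GGGCGG was present in the windows of Creb1 and Crtc3 and in the first 2 of Pde4a, and in 35.7% of all promoters. CCAAT was found in 4 of the 10 windows, at Crtc3, at the first start of Pde4a, at the Pde4b start shown and at the next Pde4b start, and in 37.4% of all promoters. The letters TGTGGT, the core that RUNX factors recognise, stood in 1 window of Pde4a and 1 of Pde4b without a peak, and in 16.8% of all promoters. TGANTCA, the AP-1 site, was in 0 of 10 windows and in 7.81% of all promoters.

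Most of the accessible regions at these genes lay in the bodies of the PDE4 genes and not at promoters. Pde4d held 57 of the 116 regions, Pde4b 17, Crtc3 13, Sik1 12, Pde4a 6, Creb1 6 and Crem 5. The summit lay inside the gene in 87 regions, and 4 regions overlapped a listed promoter. Pde4d spans 1301793 bp on chromosome 13, from 108654177 to 109955969, and ranked 2nd of 15798 coding genes by number of regions and 22nd by span. Regions were 118 to 1386 bp long, with a median of 286 bp.

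Called in all 6 libraries were 12 of the 116 regions (10.3%, beside 13.3% of all regions), and 44 were called in 1 library (37.9%, beside 35% of all), of which 23 were in day 0 replicate 1, the deepest library. A day 0 only region was called in all 3 day 0 libraries and no day 1 library, and a day 1 only region the reverse. The deposited lists put 19 regions in the day 0 class (16.4%, beside 17.5% of all 68913 regions) and 3 in the day 1 class (2.59%, beside 0.607%). By gene, 4 of the 7 had a day 0 only region and 3 a day 1 only region there, beside 38.5% and 2.45% of the coding genes with a region. In equal lists, 3 of 34 regions were day 0 only (8.82%, beside 9.11% of all 23438) and 5 were day 1 only (14.7%, beside 5.71%). The day 1 shares rest on 3 and 5 regions. Since the genes were selected on day 1 calls at Pde4d and Pde4b, nothing is read from their excess over the background. With day 1 replicate 3 left out and lists lengthened to 20069 peaks, 6 of 65 regions were day 0 only and 9 were day 1 only, beside 10.8% and 8.49% of all.

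**Figure D1:**
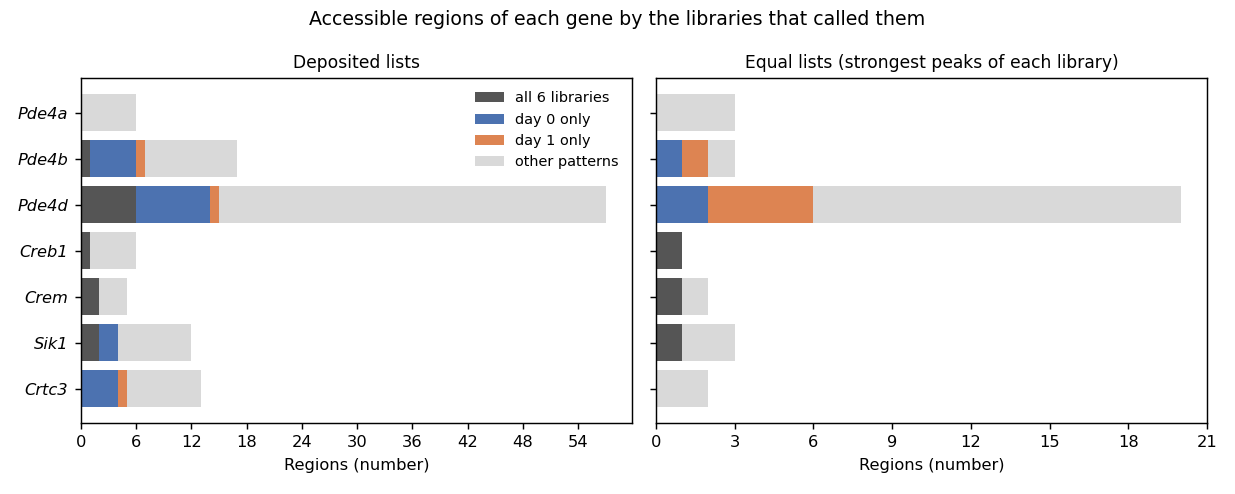
Number of accessible regions at each gene (bars, horizontal axis) in the deposited lists (left) and in equal lists of 12556 peaks per library (right), coloured by whether a region was called in all 6 libraries, in the 3 day 0 libraries only, in the 3 day 1 libraries only or in another pattern. Pde4d has 57 regions in the deposited lists and 20 in the equal lists. Its day 1 only class holds 1 region on the left and 4 different ones on the right, each with a day 0 call in the deposited lists.

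Pde4d encodes a phosphodiesterase that is abundant in many tissues. In the deposited lists the day 0 libraries had 43, 29 and 29 peaks at Pde4d and the day 1 libraries 21, 21 and 11. In equal lists the order of the days was the opposite, with 6, 4 and 7 peaks at day 0 and 10, 10 and 11 at day 1. Each day 0 library also had more peaks in total than any day 1 library. How many other genes have counts that separate by day was not counted. Since Pde4d was selected on day 1 calls, nothing is read from the order in either version. By class, Pde4d had 8 day 0 only and 1 day 1 only regions in the deposited lists, and 2 and 4 in equal lists. The 1 deposited day 1 only region was not among the 4. Each of the 4 had a call in 1 or 3 day 0 libraries of the deposited lists.

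The highest Pde4d peak of day 1 replicates 1 and 2 lay beyond the far end of the gene, and that of day 1 replicate 3 inside it, 413 kb from its first base. At chr13:109985931-109986366, 30.2 kb past the last base of Pde4d, the summits held 30, 35 and 15 fragments at day 1, 7 in day 0 replicate 1 and no call in the other day 0 libraries. The fold enrichment over local background was 12.5 ± 3.28 (SD, n = 3) at day 1 and 4.54 in day 0 replicate 1. In the day 1 libraries this peak ranked 1157, 1132 and 3267 by q, and in day 0 replicate 1 it ranked 48521. Every day 1 library was thus above the only day 0 call. Each day 1 library had fewer fragments in total than day 0 replicate 1, and the part of depth was not tested. Day 1 calls near Pde4d were among those on which the gene was selected.

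The region 413 kb into Pde4d was chr13:109066393-109067036. It was called in every library, with summits of 24, 16 and 13 fragments at day 0 and 21, 30 and 21 at day 1. Fragment counts of libraries of different depth are not comparable as they stand, so heights were also divided by the median summit height of the same library over the 9136 regions called in all 6 libraries. On that relative scale the region stood at 0.565, 0.5 and 0.542 at day 0 and 1.17, 1.36 and 1.62 at day 1, and the days did not overlap. Its summits fell within 94 bp of each other across the 6 libraries.

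Another lay 53.0 kb before the far end of the gene, at chr13:109902666-109903444. Its summits held 16, 14 and 9 fragments at day 0 and 15, 24 and 9 at day 1, or 0.376, 0.438 and 0.375 against 0.833, 1.09 and 0.692 on the relative scale. All day 1 values again lay above all day 0 values. How many of the 9136 shared regions separate by day, as this one and the one at 413 kb do, was not counted. The summits of the libraries were spread over 475 bp here, so the highest point was not the same position in each.

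The fourth Pde4d region that was day 1 only in equal lists did not differ in relative height. At chr13:109440242-109441627 the summits held 28, 19 and 16 fragments at day 0 and 10, 13 and 10 at day 1. The relative heights were 0.640 ± 0.0400 at day 0 and 0.639 ± 0.115 at day 1 (SD, n = 3 each). The day 0 peaks ranked 13580 to 16637 and the day 1 peaks 5485 to 11006, so the class here followed the rank within each list and not the height against the library's other shared regions. The 1 region of Pde4d that was day 1 only in the deposited lists, at chr13:109914921-109915215, was low, with 12, 7 and 9 fragments at day 1.

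**Figure D2:**
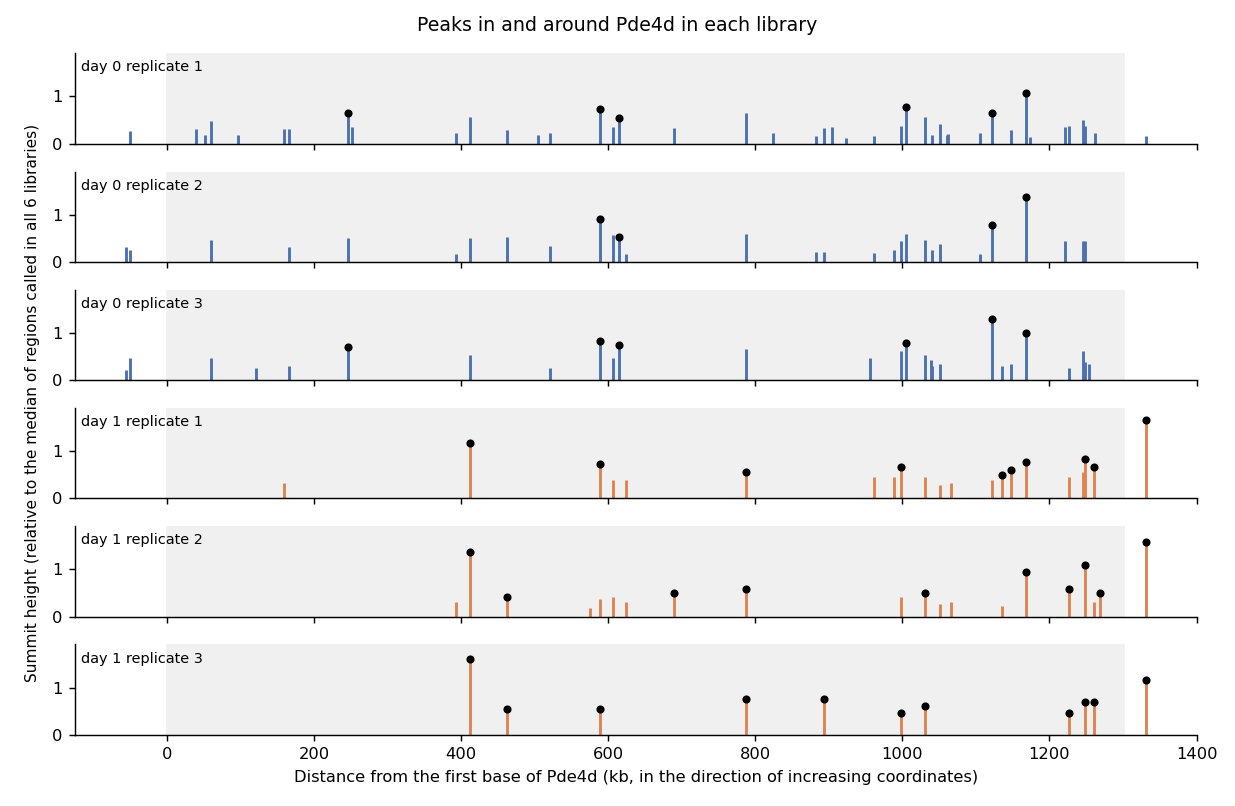
Summit height of every peak at Pde4d in each library, relative to the median of the regions called in all 6 libraries (vertical axis), against the distance from the first base of the gene in kb (horizontal axis). The shaded span is the gene, and a dot marks a peak among the 12556 strongest of its library. The tallest day 1 lines stand at 413 kb and beyond the gene at 1332 kb, up to 1.67 times the library median, where day 0 lines are at most 0.565.

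Day 0 regions of Pde4d lay all along the gene. The highest by fold enrichment was chr13:109776033-109776554, with summits of 28, 25 and 31 fragments at day 0, 7 in day 1 replicate 1 and no call in the other day 1 libraries. Its fold enrichment was 15.1 ± 2.66 (SD, n = 3) at day 0 and 5.94 in the day 1 library. The day 0 only region chr13:109268351-109268556 had summits of 23, 17 and 18 fragments and was 12.2 ± 1.19-fold enriched (SD, n = 3). Another, chr13:109658852-109659425, had 33, 19 and 19 fragments and was 12.0 ± 2.26-fold enriched (SD, n = 3).

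The tallest Pde4d peak of day 0 replicates 1 and 2 was at chr13:109822198-109823142. It held 46, 44 and 24 fragments at day 0, the last of them below the 31 of day 0 replicate 3 in the region of highest fold enrichment, and 14 and 21 fragments in the first 2 day 1 libraries and no call in day 1 replicate 3. On the relative scale these are 1.08, 1.38 and 1.00 at day 0 and 0.778 and 0.955 at day 1, with all called day 1 values below the day 0 values. At the region 588 kb into the gene, chr13:109242534-109243730, the day 0 libraries stood at relative heights of 0.729, 0.906 and 0.833 and the day 1 libraries at 0.722, 0.364 and 0.538. The summits of that region were spread over 686 bp. The other 2 Pde4d regions called in all 6 libraries, at 998 and 1031 kb, had overlapping relative heights of 0.376 to 0.667 and 0.444 to 0.615.

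No peak of any library lay within 1 kb of either end of Pde4d. The region nearest to its one listed start was 39.2 kb away and was called in day 0 replicate 1 with 13 fragments. Over all coding genes, 47.1% had no gene-end peak in any library, and 29.3% had one in all 6.

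Pde4b encodes a phosphodiesterase prominent in immune and brain cells and spans chromosome 4 from 102087332 to 102607275. In the deposited lists it had 8, 9 and 8 peaks at day 0 and 5, 5 and 2 at day 1, and in equal lists 2, 2 and 1 and 1, 1 and 2. Of its 17 regions in the deposited lists, 5 were day 0 only (29.4%) and 1 was day 1 only, 7 were called in 1 library, and 1, at the start shown above, was called in all 6 libraries. That region, chr4:102569974-102570697, had summits of 38, 27 and 18 fragments at day 0 and 10, 13 and 12 at day 1. Relative heights were 0.829 ± 0.0731 and 0.690 ± 0.203 (SD, n = 3 each), and the values of the days overlapped.

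The Pde4b region of highest mean fold enrichment was called at day 0 alone. At chr4:102510944-102511396, inside the gene, the summits held 30, 24 and 18 fragments at day 0, a fold enrichment of 11.3 ± 1.47 (SD, n = 3), and no day 1 library had a call. At the same height relative to its shared regions, this peak would hold 13.2, 16.2 and 9.56 fragments in the day 1 libraries. Of the peaks those libraries did call, 59.4%, 66.1% and 33.6% were that high or lower. For the other 4 day 0 only regions of Pde4b the corresponding shares were lower, 8.57% to 29.9% in day 1 replicate 1, 15.1% to 35.6% in day 1 replicate 2 and 0% to 1.99% in day 1 replicate 3. The part of depth in the missing day 1 calls was not tested.

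The other day 0 only regions of Pde4b were lower. The next, chr4:102563296-102563719, had 13, 17 and 12 fragments and a fold enrichment of 8.41 ± 1.02 (SD, n = 3). The remaining 3 had 5 to 18 fragments.

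The day 1 only region of Pde4b was in that class in both kinds of list. It lay at chr4:102624109-102624779, 17 kb past the last base of the gene, with summits of 11, 22 and 7 fragments at day 1 and a fold enrichment of 7.45 ± 3.20 (SD, n = 3). It lost its class when peaks needed a −log10 q of at least 5. At the same relative height the day 0 libraries would hold 30.5, 22.9 and 17.2 fragments, and 79.1%, 71.3% and 67.7% of their called peaks were that high or lower. Day 1 replicate 2 had the highest and day 1 replicate 3 the lowest value. The genes Pde4b and Pde4d, whose listed starts are all on the plus strand, thus each had a day 1 peak downstream of the gene, at 17 and 30.2 kb.

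**Figure D3:**
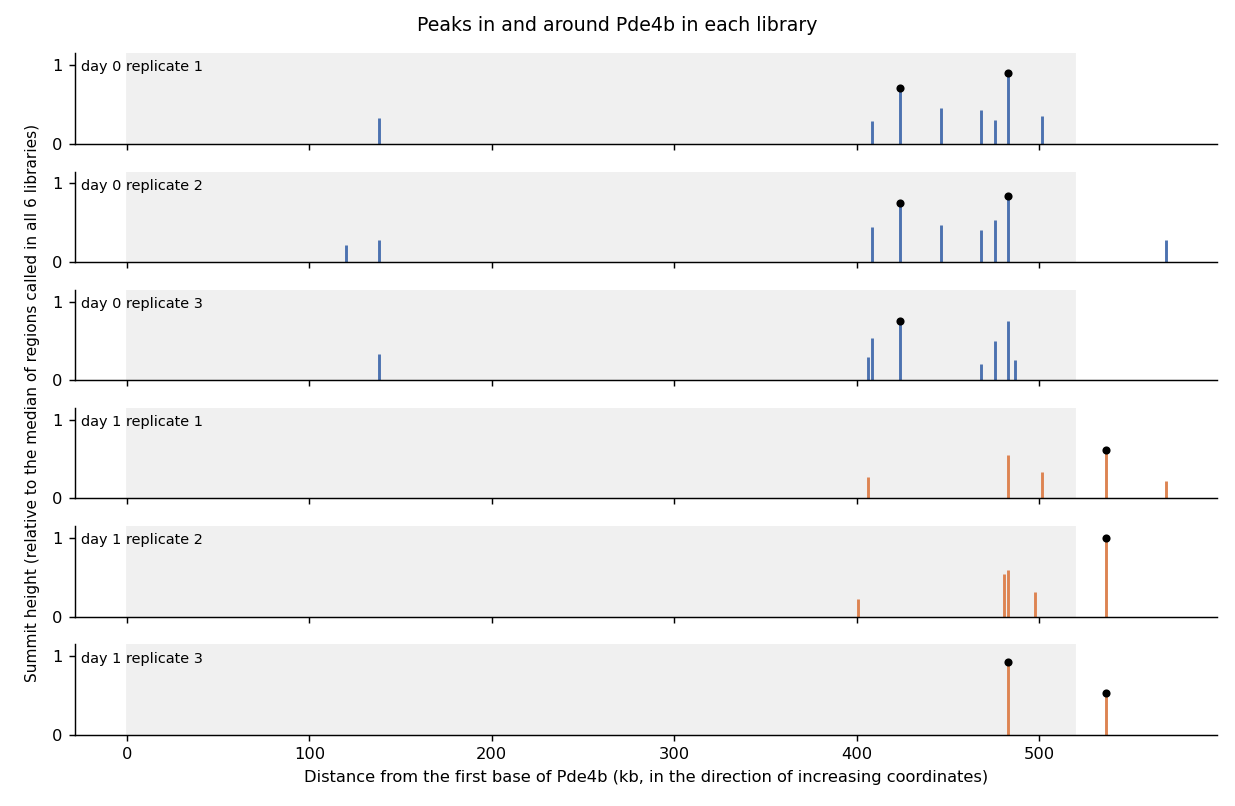
Summit height of every peak at Pde4b in each library, relative to the median of the regions called in all 6 libraries (vertical axis), against the distance from the first base of the gene in kb (horizontal axis). The shaded span is the gene, and a dot marks a peak among the 12556 strongest of its library. The line at 424 kb stands in the 3 day 0 panels at 0.706 to 0.750 and the line beyond the gene at 537 kb in the 3 day 1 panels at 0.538 to 1.00.

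Pde4a, which encodes another member of the PDE4 group, had 4, 5 and 4 peaks at day 0 and 2 in each day 1 library, over 47549 bp of chromosome 9. In equal lists it had 1, 0 and 0 peaks at day 0 and 0, 0 and 2 at day 1. None of its 6 regions was day 0 only or day 1 only with all deposited peaks and libraries. When peaks needed a −log10 q of at least 5, 4 Pde4a regions were day 0 only, and the share over all regions was 22.2%. Leaving out day 1 replicate 1 or 3 gave 2 and 1 day 0 only Pde4a regions, and shares over all regions of 20% and 18%. At the first listed start, chr9:21165114-21165546, the summits held 33, 22 and 21 fragments at day 0 and 11 and 12 in day 1 replicates 2 and 3. Its fold enrichment at day 0 was only 5.09 ± 0.597 (SD, n = 3), because the local background was 5.46, 4.20 and 2.94 fragments there, against medians of 1.22, 1.08 and 0.920 over all peaks of the same libraries. The Pde4a region of highest fold enrichment was inside the gene, at chr9:21181377-21181652, with 31, 18 and 17 fragments at day 0 and 8 in day 1 replicate 1.

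Creb1 had one dominant region, at its promoter. At chr1:64532291-64533148 the summits held 55, 44 and 31 fragments at day 0 and 22, 26 and 20 at day 1. Relative to the library median these are 1.29, 1.38 and 1.29 at day 0 and 1.22, 1.18 and 1.54 at day 1, and the days overlapped. The other 5 Creb1 regions were called at day 0 alone, 4 of them in day 0 replicate 1 only.

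Crem, on chromosome 18 from 3266354 to 3337773, had the tallest day 0 peaks of the 7 genes. At its end of higher coordinate, from 3337323 to 3338052, the summits held 70, 57 and 45 fragments at day 0 and 24, 33 and 35 at day 1. Day 0 libraries stood at relative heights of 1.65, 1.78 and 1.88 and day 1 libraries at 1.33, 1.5 and 2.69, so day 1 held both the lowest and the highest value. A second Crem region called in all 6 libraries lay inside the gene, from 3280568 to 3281263, at 0.565, 0.563 and 0.5 at day 0 and 0.833, 0.545 and 0.846 at day 1. There 2 of the 3 day 1 libraries were above all day 0 libraries. A weaker gene-end region, from 3336808 to 3337057, held 16 and 12 fragments in day 0 replicates 1 and 2 and was called in no other library.

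Sik1, a small gene on chromosome 17 from 31844248 to 31855804, had 11, 7 and 6 peaks at day 0 and 2, 5 and 2 at day 1, with none of the summits inside the gene. In equal lists it had 1, 2 and 3 peaks at day 0 and 2, 2 and 2 at day 1, and no day only region. Its stronger gene-end region, chr17:31855856-31856071, had summits of 24, 35 and 18 fragments at day 0 and 14, 19 and 10 at day 1. On the relative scale these were 0.803 ± 0.268 and 0.804 ± 0.0522 (SD, n = 3 each). The weaker, chr17:31856558-31856731, held 8 fragments in day 0 replicate 1 and was called in no other library. The Sik1 region of highest mean fold enrichment, at chr17:31892688-31893188 and 37.2 kb from the gene, held 47, 34 and 35 fragments at day 0 and 13, 16 and 14 at day 1. This put the day 0 libraries at relative heights of 1.11, 1.06 and 1.46 and the day 1 libraries at 0.722, 0.727 and 1.08. The lowest day 0 value was just under the highest day 1 value, so the days overlapped.

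The 2 day 0 only regions of Sik1 lay on the other side of the gene. At chr17:31808181-31808454 the summits held 19, 16 and 19 fragments, and at chr17:31836326-31836551 they held 17, 15 and 15. The fold enrichments were 10.1 ± 0.476 and 7.31 ± 0.429 (SD, n = 3 each).

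Crtc3, on chromosome 7 from 80586627 to 80688948, had 9, 7 and 4 peaks at day 0 and 3, 2 and 2 at day 1. In equal lists it had 0, 0 and 0 peaks at day 0 and 0, 0 and 2 at day 1, and no day only region. Its region of highest mean fold enrichment was day 0 only and inside the gene, at chr7:80657813-80658288, with 16, 15 and 15 fragments and a fold enrichment of 9.16 ± 0.356 (SD, n = 3). The next, chr7:80628568-80629136, had 16, 12 and 10 fragments. At its listed start the peak was weak, with 10 fragments in day 0 replicate 2, 8 in day 1 replicate 1 and no call elsewhere. A second gene-end region, chr7:80687792-80688315, held 12 fragments in each of day 0 replicates 1 and 2 and was called in no other library.

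A day 0 only and a day 1 only region stood side by side near Crtc3, 102 bp apart and 24.6 kb or more from the gene. The summits of chr7:80561376-80561809 held 10, 9 and 11 fragments at day 0, and those of chr7:80561912-80562267 held 7, 8 and 9 at day 1. The strongest summits of the 2 regions were 455 bp apart. All of these peaks were low, and neither region reached its class in equal lists. Both a minimum −log10 q of 5 and an overlap of at least 50% for merging left no day 1 only region at Crtc3. This was the 1 pair of day only regions within 1 kb of each other at the 7 genes.

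Gene-end calls, within 1 kb of either end, were made at 5, 5 and 4 of the 7 genes in the day 0 libraries and 4, 4 and 4 at day 1. Over all coding genes, day 0 libraries had shares of 50.2%, 46.6% and 44.6% and day 1 libraries of 38.9%, 42% and 31.9%. Creb1, Crem and Sik1 were called in all 6 libraries, Pde4a in 3 and 2, Crtc3 in 2 and 1, and Pde4b and Pde4d in none. Among equal lists, day 0 libraries had 2, 3 and 3 such genes and day 1 libraries 3, 3 and 4. The shares over all coding genes are from the deposited lists only, so nothing is read from the order of the days in equal lists.

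For the 12 regions called in all 6 libraries, relative heights were set against those of all 9136 such regions in one limma fit with Benjamini-Hochberg adjustment. At day 1, 2 of the 12 were higher at an adjusted p under 0.05 (7.73% of all) and 0 were lower (6.88% of all). An unadjusted p under 0.05 was found for 4 of the 12, beside 1375 higher and 1056 lower of all 9136. The 2 regions past the adjusted threshold were those of Pde4d at 413 kb, with a log2 difference of 1.36 (SE 0.23), and at 1249 kb, with 1.12 (SE 0.27). Both were lost, with log2 differences of 1.14 and 0.90, when summits were scaled to the fragment total of the library, a scaling under which 30 regions were higher and 48 lower over the whole set and the median of all regions was −0.15. The Pde4d region at 588 kb had −0.65 (SE 0.26) and the Sik1 region 37.2 kb from the gene −0.53 (SE 0.22), both past the threshold unadjusted but not adjusted. The Pde4d region was called lower with day 1 replicate 1 left out (−0.89) and with cyclic loess scaling (−0.77), and the Sik1 region with day 1 replicate 3 left out (−0.62). The other 8 differences were between −0.30 and 0.43. The median over the 12 was −0.01 and over all 9136 regions 0.06. The genes were listed with calls of the same libraries known, among them day 1 calls near Pde4d and Pde4b. The adjusted p of the 2 Pde4d regions is therefore no independent test. Nothing about the genes as a group is read from these counts.

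**Figure D4:**
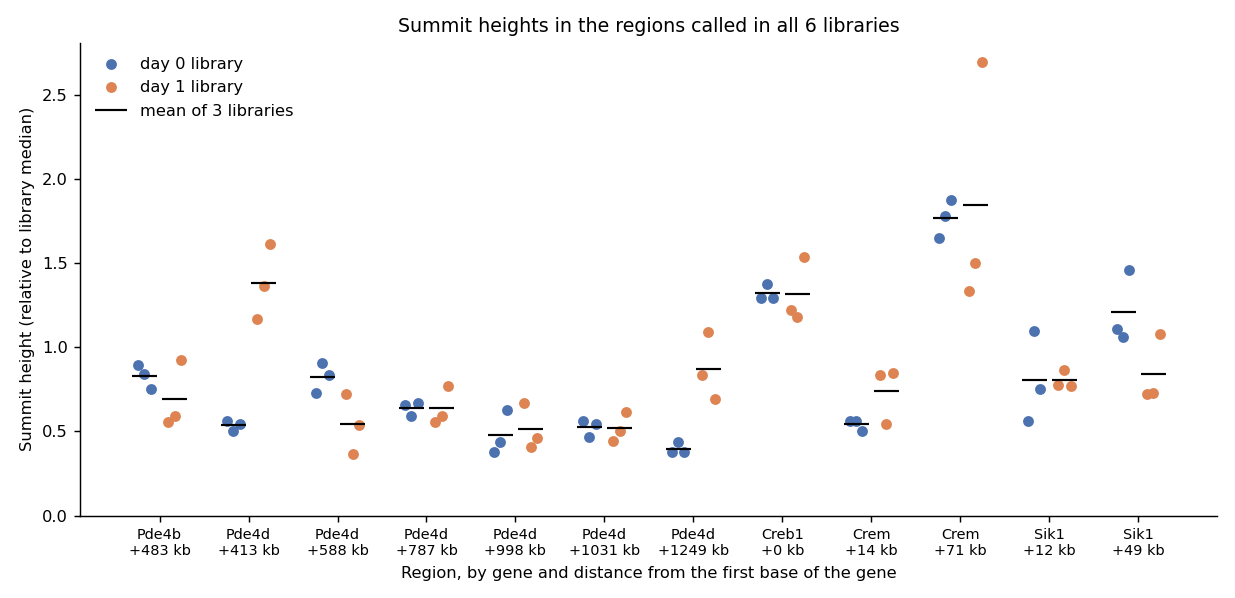
Summit height relative to the library median (vertical axis) in the 12 regions of these genes that were called in all 6 libraries, named by gene and distance in kb from its first base. Points are single libraries and lines the means of 3. The day 1 points lie above all day 0 points at Pde4d 413 kb and 1249 kb, below them at Pde4d 588 kb, and overlap them at Creb1 and at both regions of Crem and of Sik1.

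Other genes of the pathway also had regions of either day. Equal lists are used here, in which 13% of coding genes with a region had a day 0 only one and 10.3% a day 1 only one; genes with more regions have more chances of either. Of the other cyclic AMP phosphodiesterase genes, 11 of 13 had a region, 2 had a day 0 only one (Pde10a and Pde3a) and 3 a day 1 only one (Pde3a, with 2, Pde10a and Pde3b). Pde3b encodes the phosphodiesterase through which insulin restrains lipolysis. Of 20 genes of receptors, G proteins and adenylyl cyclases, 16 had a region, 2 a day 0 only one (Adcy6 and Adcy8) and 4 a day 1 only one (Adcy5, Adcy6, Adcy9 and Gnas, the gene of the stimulatory G protein).

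Of 19 genes of protein kinase A subunits, their inhibitors and anchors, and the exchange factors that cyclic AMP activates, 16 had a region. Among them 5 had a day 0 only one, led by Akap6 and Prkar2b with 2 each, and 3 a day 1 only one, all regulatory subunits (Prkar1a, Prkar1b and Prkar2b). All 12 other genes of the CREB and ATF factors, their coactivators and the salt-inducible kinases had a region. Day 0 only regions lay at 5 of them, led by Creb3l2 with 3 and Sik2 with 2, and day 1 only regions at 5, among them Creb3l2, Creb5, Crebbp and Sik2. Of the 7 genes described here, 2 (Pde4d and Pde4b) had regions of both classes in equal lists. In the deposited lists, 12 of the 13, 12 of the 20, 11 of the 19 and 7 of the 12 pathway genes had a day 0 only region. A day 1 only region lay at 2, 1, 1 and 2 of them there. Over coding genes with a region in those lists the shares were 38.5% and 2.45%. Adcy6, Adcy9, Gnas, Pde10a, Prkar1a, Prkar1b, Creb3l2, Crebbp and Sik2 had no day 1 only region in the deposited lists.

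Genes whose peak counts per library were most like those of a described gene were sought among the 1547 coding genes with at least 10 regions, by Euclidean distance over the 6 counts in equal lists. For Pde4d the nearest were Vps13d (3.46 peaks), Gse1 (4.80) and Ano6 (5.92). Pcdh1 had the same 6 counts as Pde4b, and Hoxa3 and Tbc1d16 were 1 peak away. Wwtr1 had the same counts as Sik1, followed by Hpcal1 and Fam72a at 1 peak. Kctd1, Smoc2 and Prrx1 had the same counts as Crtc3, which are 0 in all libraries but day 1 replicate 3, so this likeness rests on 2 peaks of 1 library.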

How the data were processed

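The 6 wild-type ATAC-seq libraries were analysed from peak lists, 1 per library. The submitters' processing notes name HOMER 4.11, DiffBind 3.8.4, MACS2 2.2.7.1, deepTools 3.5.1, SAMtools 1.15.1, Bowtie2 2.4.4, Trim Galore 0.6.7 and the mm10 build, with no roles given. Peaks were called per library by MACS2 from paired-end fragments without a control, at a q cutoff of 0.05, per the file headers, which also give a local background of 10000 bp and 1 fragment kept per position. The deposited pileup is the signal at the summit, a whole number of fragments not scaled to depth. Fold enrichment, as deposited, is a ratio (pileup plus 1, over local background plus 1). The deposited −log10 p and −log10 q values rank peaks within a library. The length column is the peak width, per the file headers. These per-peak values are the authors' own. A peak marks fragment density, not a transposase cut.

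Peaks off chromosomes 1 to 19, X and Y (69 of 192614) were left out, and peaks sharing 1 bp or more were merged into regions. Absence from a list is not absence of signal: called summits held at least 4 or 5 fragments, depending on the library. Equal lists kept the 12556 strongest peaks by q. The gene table (RefSeq, GRCm38.p6) has no exons or UTRs, so none are given. Where a region held several peaks of a library, the highest was used. Heights in regions called in all 6 libraries were divided by the library's median and compared as log2 values with limma 3.58.1 (trend), no pseudocount, without a replicate block. Tested on simulated data for this comparison (9136 regions), 47% of 100 regions changed by 1 on the log2 scale and 84% of 100 changed by 1.5 were called, with 7 false calls among 8936. The simulated noise was Poisson with an added spread set by hand and equal for all libraries. These rates may therefore differ in the real libraries. The tables were made with Python 3.11.15, pandas 2.3.3 and numpy 2.4.6, figures with matplotlib 3.10.9, and the fit with R 4.3.3. Depth per library is given with the results. For arrangements of 3 libraries against 3, no exact permutation test was made, since it cannot go below 0.1. Alternatives covered the q minimum, overlap, window, scaling, pseudocount, low heights, replicate block and each library left out.

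The genes and gene lists were chosen with earlier results of these data known. Regions were named by rule: gene-end regions, day only regions of equal lists, the 2 strongest deposited day only regions per gene and day, the strongest region per gene, and regions past the limma threshold. Pathway genes were named up to 4 per list and day, and likeness to up to 3 genes. Other regions named, among them those called in all 6 libraries, the low Pde4b regions and the tallest Pde4d peaks, were chosen after their values were seen.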

Additional observations from a re-analysis of the deposited data

How the results depend on the processing

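Of the 116 regions in deposited lists, 19 were day 0 only and 3 day 1 only, and of the 34 in equal lists 3 and 5. With each library in turn left out, the deposited lists held 95 to 115 regions, 20 to 26 and 3 to 5 of them day only. Equal lists then held 29 to 34 regions, 3 to 5 and 5 to 8 of them day only. Shares over all regions also rose each time, from 17.5% and 0.607% to as much as 25.9% and 1.72% in deposited lists. In equal lists they rose from 9.11% and 5.71% to as much as 11.7% and 8.99%. The higher counts are therefore not read as a change at the described genes. Day 1 only regions fell to 1 in deposited and 3 in equal lists at −log10 q of at least 5. Their shares over all regions were then 0.62% and 4.07%. With 2 of 3 libraries of a day, day 1 only regions were 5 and 10, and equal day 0 only regions 5. Over all regions the shares rose as well, to 2.01%, 12.6% and 15.2%. They were 0.607%, 5.71% and 9.11% when all 3 libraries were required. Lengthened lists without day 1 replicate 3 gave 6 day 0 only and 9 day 1 only. Gene-end calls averaged 4.67 at day 0 and 4 at day 1, and 2.67 and 3.33 in equal lists, for which no share over all coding genes is given.

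In the fit of summit heights, 706 of all shared regions were higher and 629 lower at day 1. Scaling to total fragments gave 30 and 48 (0 of the described regions higher), a mean of at least 20 fragments 397 higher (1 described region), fold enrichment 365 and 310, cyclic loess 1 described region lower, and leaving out 1 library 497 to 1132 higher, 427 to 1141 lower, and 2 higher and 0 to 1 lower among the described. Same-numbered libraries of the days showed no pairing (correlations of deviations −0.0365, 0.0544 and 0.00808); with a replicate block 729 were higher and 633 lower, 2 and 0 of them described.

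Differences near 0 changed sign: Creb1 gene end 0.01959 with a mean of at least 20 (leaving out libraries, −0.04024 to 0.04959), Crem gene end 0.02552 with the same minimum and 0.03946 by fold enrichment (−0.22 to 0.19), Pde4d 787 kb 0.003732 with a pseudocount of 1 and 0.1674 by fold enrichment (−0.07687 to 0.07861), Pde4d 998 kb −0.1162 by total fragments and −0.2097 by loess (−0.11 to 0.30), Pde4d 1031 kb 0.00865 with the pseudocount and 0.02482 by fold enrichment (−0.1108 to 0.08481), and Sik1 gene end −0.1604 by total fragments and −0.0981 by fold enrichment (−0.17 to 0.29). The Pde4d regions at 413 and 1249 kb were called in every alternative but scaling to total fragments, except where the minimum of 20 left the latter out. The causes were not tested. Low summits limit the precision.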
